A study of Mus musculus with 4 samples.

Results

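The testis-specific serine kinases are a small family of protein kinases, and 6 of their genes, Tssk1 to Tssk6, were taken by symbol from a table of 28595 mouse genes. They were counted in testis sections of H3t-knockout and wild-type mice by photo-isolation chemistry, in which ultraviolet light releases blocked complementary DNA so that a library forms only from the irradiated area. H3t is a testis variant of histone H3, and its deletion disrupts spermatogenesis. Sections were 10 µm thick, and light covered either the entire section or only Leydig cells, which make testosterone in the space around the seminiferous tubules. The 4 groups, of 3 libraries each, were knockout and wild-type Leydig-targeted areas, and knockout and wild-type entire sections. Wild-type mice are titled young; the labels give no age for knockouts, no strain and no account of the deleted stretch. Nothing says that the 3 libraries were taken from different mice, so p-values cover only their spread, which may be technical. The deposited barcode list puts the 3 libraries of each group under a library name of their own, so effects of that preparation and of the group cannot be told apart.

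TSSK proteins act after meiosis, in spermatids, the haploid cells that build the acrosome and the sperm tail, pack their DNA with protamines and become sperm. In mice, males without Tssk1 and Tssk2, without Tssk3 or without Tssk6 are infertile, and males without Tssk4 are subfertile. TSSK6 is needed for the exchange of histones for protamines, TSSK4 phosphorylates the outer dense fibre protein ODF2, and TSSK1 and TSSK2 phosphorylate their shared substrate TSKS. HSP90 and its small co-chaperone TSACC keep TSSK kinases stable and active.

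All coordinates are in GRCm38. Tssk1 (ENSMUSG00000041566) lies on chromosome 16 from 17894223 to 17897922 on the plus strand as a single exon. Tssk2 (ENSMUSG00000045521) follows on the same strand, also as a single exon, from 17898637 to 17900024, with 714 bases between the genes. Tssk3 (ENSMUSG00000000411) lies on chromosome 4 from 129489014 to 129491022 on the minus strand. Tssk4 (ENSMUSG00000007591) lies on chromosome 14 from 55650184 to 55652539 on the plus strand. Tssk5 (ENSMUSG00000060794) lies on chromosome 15 from 76371952 to 76374938 on the minus strand. Tssk6 (ENSMUSG00000047654) lies on chromosome 8 from 69902184 to 69903518 on the plus strand.

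The neighbours Tssk1 and Tssk2 were also the closest pair in sequence. Their coding sequences were identical at 83.5% of 1036 aligned bases, whereas the other 14 pairs of members were identical at 63.5% to 69.0%. They shared a run of 113 identical bases, coding positions 371 to 483 in both, and no other pair of transcripts shared a run of more than 14 bases. The run is shown because reads from inside it cannot be assigned to either gene. It holds the codons of the His-Arg-Asp triplet of the kinase catalytic loop, and the capitals mark the 9 bases that differ in the 21 bases on either side.
Tssk1, chr16:17894702-17894856, plus strand: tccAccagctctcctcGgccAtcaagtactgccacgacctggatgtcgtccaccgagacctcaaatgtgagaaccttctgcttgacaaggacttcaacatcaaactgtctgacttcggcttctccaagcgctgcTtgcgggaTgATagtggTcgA
Tssk2, chr16:17899084-17899238, plus strand: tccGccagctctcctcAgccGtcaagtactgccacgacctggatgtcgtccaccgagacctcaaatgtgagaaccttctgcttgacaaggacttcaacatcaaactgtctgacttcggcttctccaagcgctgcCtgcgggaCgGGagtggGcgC
The run ends 3087 bases before the annotated 3′ end of the Tssk1 transcript and 807 bases before that of Tssk2.

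Sequence before the annotated starts was compared as well, because the pair was counted together in the same libraries. Promoter sequences came from RefSeq in the build GRCm38.p6 and were matched for 5 of the 6 members, all but Tssk5. The last 70 bases before each RefSeq start of the pair are shown, a start that for Tssk1 lies ahead of the GENCODE start given above, with shared runs of at least 8 bases in capitals.
Tssk1, chr16:17894133-17894202, plus strand: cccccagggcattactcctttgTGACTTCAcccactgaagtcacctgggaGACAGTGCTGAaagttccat
Tssk2, chr16:17898567-17898636, plus strand: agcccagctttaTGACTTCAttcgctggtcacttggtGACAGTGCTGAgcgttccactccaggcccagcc
In the 250 bases before the start, the longest run shared by this pair was the 11-base GACAGTGCTGA, while the other 9 pairs of members shared at most 8 bases in a row. Searched on both strands over 32851 promoters, GACAGTGCTGA was in 6 of them, 0.0183%, which include Tssk1 and Tssk2. The octamer TGACTTCA was in 1.31% of promoters and, among the members, in Tssk1 and Tssk2. Both runs were picked after the sequences were compared. The cyclic AMP response element TGACGTCA, to which CREM and CREB1 bind, was in 1.55% of promoters and in none of the 5 members, and the shorter TGACG, which it contains, was in 17.8% and in Tssk6. TATAAA was in 12.4% of promoters and in none of the members, and CCAAT was in 33.8% and in Tssk3 and Tssk4. A match describes letters in this window and is no evidence of binding.

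Leydig-targeted libraries held 5947 to 54882 counts and entire-section libraries 247539 to 566527, so a single count stood for far more of a Leydig-targeted library. H3f4, the symbol of H3t in this table, had 1 count in all 12 libraries, which cannot check the genotype labels. Summed counts of 7 Leydig cell markers made up 3.56% ± 0.394 of knockout and 1.03% ± 0.361 of wild-type Leydig-targeted libraries (SD, n = 3 each), against 1.93% ± 0.293 of knockout and 0.335% ± 0.121 of wild-type entire sections. Of 28595 genes, 5182 passed the expression filter of about 66.1 CPM (counts scaled to library size) in at least 3 libraries. Tssk1, Tssk2, Tssk3 and Tssk6 passed it, and they did so through wild-type entire sections, so tests in which they were lower in knockouts or in Leydig-targeted libraries were favoured by that choice. Tssk4 and Tssk5 did not pass and are described by their counts.

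In wild-type entire sections all 6 genes were detected in all 3 libraries, over a wide range of levels. Tssk1 was at 277, 635 and 618 CPM in wild-type replicates 1, 2 and 3. Tssk3 followed at 208, 367 and 246 CPM. Tssk1 was above Tssk3 in each of the 3 libraries, although their ranges overlapped. Tssk2 was at 93.6, 163 and 137 CPM and Tssk6 at 90.0, 153 and 88.9 CPM, so these neighbours in the order overlapped, while both were below every Tssk3 value. Tssk4 was at 38.8, 59.3 and 40.4 CPM, from 22, 31 and 10 counts. Tssk5 was lowest, at 7.06, 11.5 and 12.1 CPM, from 4, 6 and 3 counts, and overlapped with no other member. Together the 6 genes made up 1082 ± 341 CPM (SD, n = 3).

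Divided by exon length, the top of this order changed. Tssk3 had the highest mean, 214 CPM per kb of exon, and Tssk1, whose annotated transcript is the longest at 3700 bases, came second at 138 CPM per kb. Tssk2 averaged 94.5, Tssk6 82.9, Tssk4 26.9 and Tssk5 4.93 CPM per kb. Photo-isolation libraries are primed at the poly(A) tail, so counts may not scale with length and the order of Tssk1 and Tssk3 depends on the scale. Overlapping genes limit other levels. Tssk1 lies inside Dgcr2, a gene on the opposite strand that shares 63 exonic bases with it. The first 375 bases of Tssk6 overlap exons of Ndufa13, on the opposite strand, and 15 bases overlap an exon of Yjefn3. Whether strand was used in counting is not stated, and reads from these stretches cannot be told apart.

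**Figure D1:**
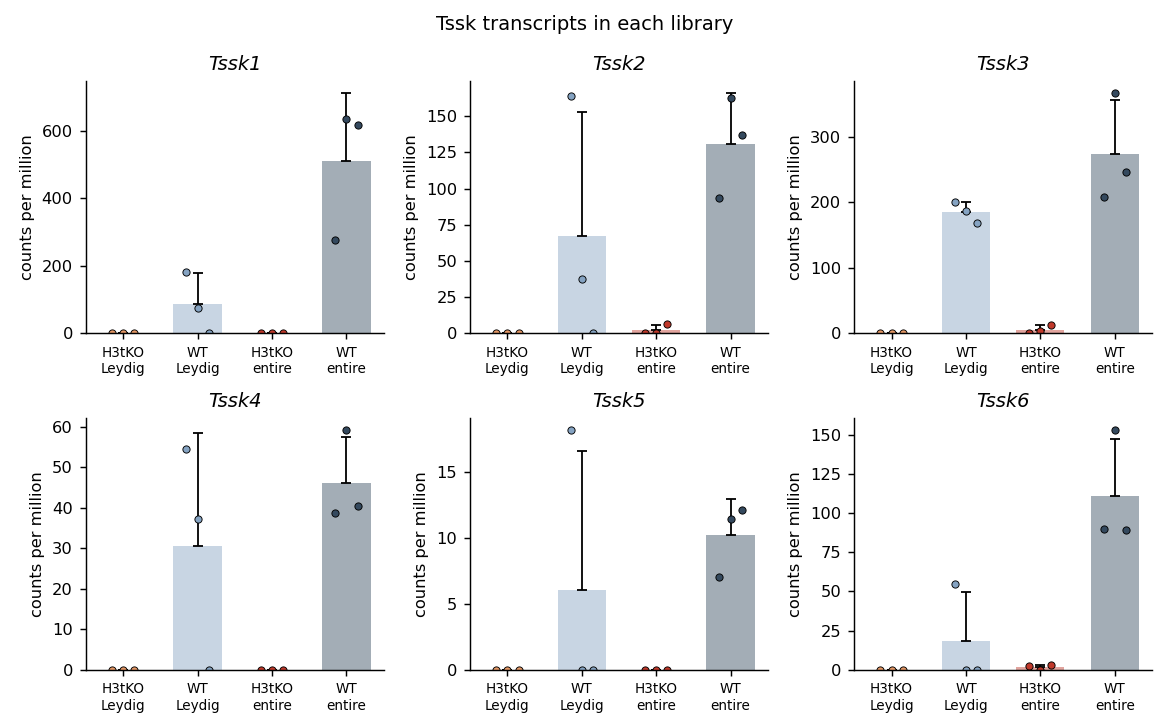
CPM of Tssk1 to Tssk6 in each of the 12 libraries, 1 panel per gene with its own linear axis. Points are libraries, bars are group means and whiskers 1 SD (n = 3). Knockout groups sit at or near 0 in every panel, and wild-type entire sections are the highest group mean for each gene.

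Knockout entire sections held almost none of these transcripts. The 6 genes together had 1, 1 and 7 counts in knockout replicates 1, 2 and 3, against 405, 726 and 283 in wild-type entire sections. As shares of the libraries these were 2.10, 2.55 and 21.8 CPM in knockouts and 715, 1389 and 1143 CPM in wild type, a 140-fold lower pooled level in knockouts with an exact 95% interval of 73.5 to 306. Without knockout replicate 3, which held most of the knockout counts, it was 459-fold lower. No knockout section overlapped with a wild-type one for any of the 6 genes. Such separation was common, as the partner, kinase and phosphatase genes described below, all but Creb1, Tesk1 and Gsk3a, were also separate, in either direction. The share of all genes that separated was not computed. Of the 4 members tested, all 4 fell in knockout sections, where 39.1% of all genes tested were called lower, and the members' median log2 change of -6.43 stood beside a median of -0.35 over all genes tested.

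Tssk1, the member with the most counts in wild type, had 0 counts in each knockout section, against 157, 332 and 153 in wild-type sections. Taking 3 counts for the whole group as the floor, it was at least 190-fold lower in knockouts (edgeR quasi-likelihood test, adjusted p = 2.81e-30). Its neighbour Tssk2 had 0, 0 and 2 counts in knockout sections, against 53, 85 and 34 in wild type. That ratio was 76.5-fold with a counting interval of 20.9 to 637 (adjusted p = 2.76e-19 by edgeR). Both genes were separated from wild type in every library, and the knockout counts of Tssk2 came from replicate 3 alone.

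Tssk3, which is phosphorylated by the kinase PDK1, had 0, 1 and 4 counts in knockout sections, against 118, 192 and 61 in wild type. Its log2 change was -6.43 ± 0.64 (SE; adjusted p = 2.34e-22 by edgeR), and its pooled level was 66.0-fold lower in knockouts, with an interval of 28.0 to 205. Without knockout replicate 3 the log2 change was -7.87, and without replicate 1 it was -5.78. Tssk6 had 1, 0 and 1 counts in knockout sections, against 51, 80 and 22 in wild type. It was 68.1-fold lower with an interval of 18.5 to 567 (adjusted p = 3.40e-18 by edgeR). The intervals of Tssk2, Tssk3 and Tssk6 overlap, so no order of loss among these 3 could be read at this depth.

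Tssk4 and Tssk5 were not detected in any knockout section. Tssk4 had 63 counts over the wild-type sections and was at least 14.8-fold lower in knockouts (18.7-fold set against 3 counts). Tssk5 had 13 counts over the wild-type sections and was at least 2.71-fold lower (3.86-fold set against 3 counts). With no filter on low counts, 26389 genes entered the fit and 4639 of them were called lower. Tssk4 and Tssk5 were among those by edgeR, Tssk4 at an adjusted p of 2.02e-10 and Tssk5 at 0.00201.

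Markers of spermatids moved with these genes. The 8 elongating spermatid genes, among them the protamines Prm1 and Prm2, summed to 0.00484% to 0.0699% of counts in knockout sections and 2.35% to 4.46% in wild-type sections, and 1 of the 8 had no count in knockouts. The 7 round spermatid genes, among them the acrosomal Acrv1 and Acr, summed to 0.00127% to 0.0131% in knockout sections and 0.559% to 1.06% in wild type, with none of the 7 at 0. Earlier germ cell markers moved as well: the 7 spermatocyte genes summed to 0.00862% ± 0.000977 in knockout and 0.204% ± 0.0131 in wild-type sections. Of these 7 only 5 were tested, and all 5 fell, where 39.1% of all genes tested were called lower. With so low a share in knockouts, these genes passed the filter largely through wild-type libraries, which favoured falls. The 7 spermatogonial genes summed to 0.0708% ± 0.00587 in knockout and 0.0208% ± 0.00392 in wild-type sections (SD, n = 3 each). The part of these cells in the loss of Tssk transcripts was not tested. Fewer spermatids and less RNA per spermatid cannot be told apart in these bulk sections.

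Counted against those 15 spermatid genes, the rates of the summed family in the 2 genotypes had overlapping intervals, though those of Tssk1 alone did not. There were 9 Tssk counts for 426 spermatid-gene counts in knockout sections, 21.1 per 1000 with an exact 95% interval of 9.59 to 40.5, and 1414 for 56125 in wild-type sections, 25.2 per 1000 with an interval of 23.9 to 26.6. The 3 wild-type sections stood close together, at 24.6, 25.2 and 26.2 per 1000. Knockout replicate 3 held 7 of the 9 Tssk counts and also 267 of the 426 spermatid-gene counts, a rate of 26.2 per 1000. Replicates 1 and 2 of the knockout held 1 Tssk count each, for 135 and 24 spermatid-gene counts. Tssk1 gave 0 counts for the 426 in knockout sections, an interval of 0 to 8.70 per 1000. In wild-type sections it gave 11.4 per 1000, with an interval of 10.6 to 12.4. Single wild-type sections gave 9.53, 11.5 and 14.2 per 1000. For each of the other members the intervals of the 2 genotypes overlapped. These intervals cover counting error only.

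**Figure D2:**
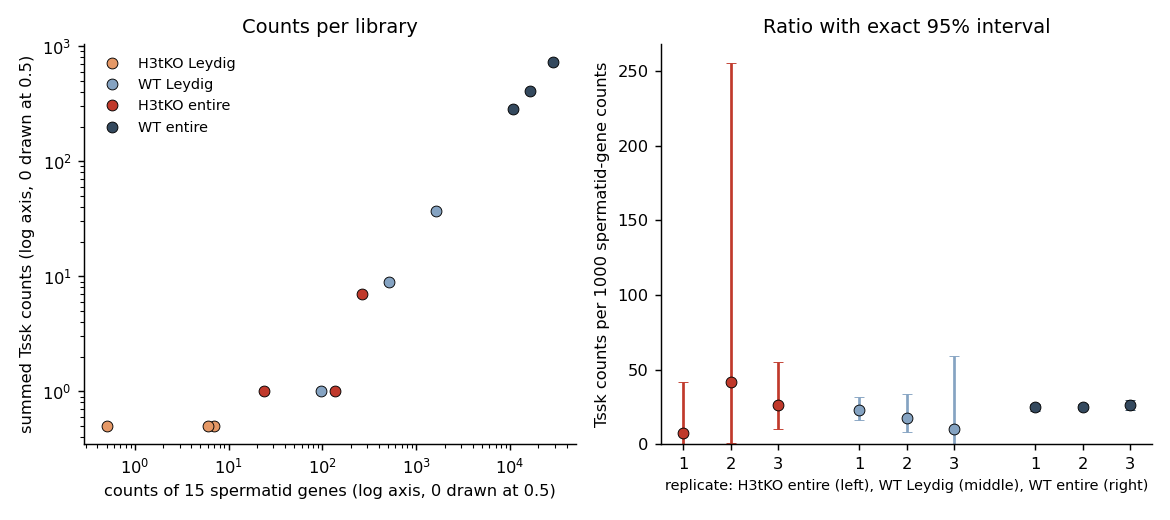
Left, summed Tssk counts against the summed counts of 15 spermatid genes in each library, both on log axes with 0 drawn at 0.5. Right, Tssk counts per 1000 spermatid-gene counts with exact 95% intervals, knockout entire sections first; wild-type entire sections lie between 24.6 and 26.2, and the wide knockout intervals contain those values.

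What few family counts knockout sections held came from 3 of the 6 genes. Tssk1 gave 0 of the 9 family counts in knockout sections, with an exact 95% interval up to 33.6%, against 45.4% in wild-type sections, with an interval of 42.8% to 48.0%. Among wild-type sections its share was 38.8%, 45.7% and 54.1%, and the intervals of replicates 1 and 3, up to 43.7% and from 48.1%, did not meet, so libraries of 1 group varied beyond counting error. Tssk3 gave 5 of the 9 counts in knockouts, and Tssk2 and Tssk6 gave 2 each. With 7 of the 9 counts from a single library, the knockout make-up has no replicate check.

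**Figure D3:**
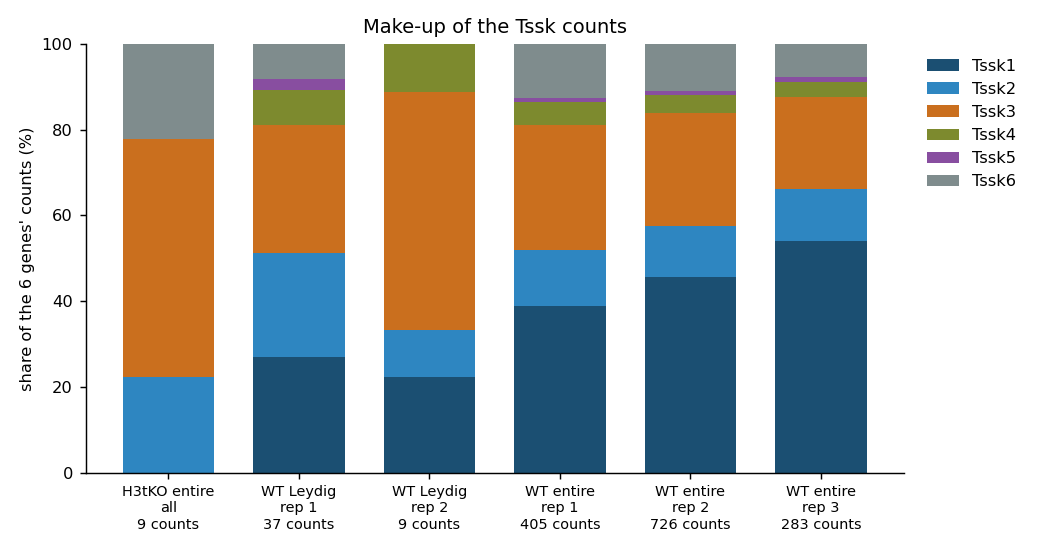
Share of the 6 genes' counts that each gene gave, as stacked bars summing to 100%. Bars are the knockout entire sections together, wild-type Leydig-targeted replicates 1 and 2 singly and the wild-type entire sections singly; Tssk1 gives 0% in the knockout bar, 27.0% and 22.2% in the Leydig-targeted bars and 38.8% to 54.1% in wild-type sections.

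Within wild type, Leydig-targeted libraries held 12 Tssk1 and 10 Tssk2 counts, so Tssk1 gave 54.5% of the counts of this pair, with an exact 95% interval of 32.2% to 75.6%. In entire sections Tssk1 gave 74.8%, 79.6% and 81.8% of Tssk1 plus Tssk2, or 78.9% over all 3, with an interval of 75.9% to 81.6%. The intervals just missed each other. Replicate 1 gave 19 of the 22 Leydig-targeted counts, so the difference could not be set against the spread over libraries.

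Leydig-targeted libraries of knockouts held no Tssk count at all, in 53003, 39688 and 15208 counts, against 37, 9 and 1 Tssk counts in wild-type replicates 1, 2 and 3. The family was at least 19.3-fold lower in knockouts, and at least 9.81-fold, 12.2-fold or 10.97-fold without knockout replicate 1, knockout replicate 2 or wild-type replicate 1. Of the 4 members tested, 3 fell, where 20.9% of all genes tested were called lower. Tssk3 had 0 counts in knockouts, against 11, 5 and 1 in wild type, and was at least 5.08-fold lower (adjusted p = 4.43e-04 by edgeR). It was the only member with a count in every wild-type Leydig-targeted library, so its groups did not overlap, though in replicate 3 this rests on 1 count. Of the partner, kinase and phosphatase genes described below, Tsacc, Odf2, Hsp90aa1, Hspa8, Nek2, Stk31 and Ppp3r2 were also separate there, in either direction, and the others overlapped. The share of all genes was not computed.

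Tssk1 had 0 counts in knockout Leydig-targeted libraries, against 10, 2 and 0 in wild type, and was at least 3.42-fold lower (adjusted p = 0.00354 by edgeR). Tssk2 had 0 counts in knockouts, against 9, 1 and 0 in wild type, and was at least 2.76-fold lower (adjusted p = 0.00456 by edgeR). Both overlapped between genotypes through wild-type replicate 3, the shallowest library. Without wild-type replicate 1 neither was called, with adjusted p of 0.151 for Tssk1 and 0.308 for Tssk2. Nor was either called with no filter on low counts, at 0.0741 and 0.0787.

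Tssk6 had 0 counts in knockout and 3 in wild-type Leydig-targeted libraries, both at or under the floor, and did not pass the test (adjusted p = 0.126 by edgeR). Tssk4 had 0 counts in knockouts and 4 in wild type, and Tssk5 had 0 in knockouts and 1 in wild type, too few to bound a difference. At this depth a knockout level under 27.8 CPM could not be told from 0. Spermatid genes were scarce in the knockout libraries too, with 13 counts over the 15 genes, against 2225 in wild type, so the rate per spermatid-gene count could not be compared between genotypes there. None of the 4 members passed the test of a difference in knockout effect between Leydig-targeted areas and entire sections (genotype by region interaction, adjusted p = 0.920 to 1.0 and unadjusted p = 0.568 to 0.9995 by edgeR), which called 0.328% of all genes, and DESeq2 called none of the 4 either. With all knockout Leydig-targeted counts at 0, that test had little room to find a difference.

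In wild type, Leydig-targeted areas still carried Tssk transcripts, though less of them than entire sections. The family stood at 674, 335 and 168 CPM in wild-type Leydig-targeted libraries, against 715, 1389 and 1143 CPM in wild-type entire sections. The pooled level was 1.97-fold lower in Leydig-targeted libraries, with an interval of 1.48 to 2.70. Elongating spermatid genes summed to 1.58% ± 0.687 of Leydig-targeted and 3.49% ± 1.07 of entire-section counts (SD, n = 3 each). Round spermatid genes summed to 0.577% ± 0.0194 and 0.774% ± 0.259. Spermatocyte genes went the other way, at 0.344% ± 0.00898 and 0.204% ± 0.0131, though 0 of the 5 tested were called in either direction. Per 1000 spermatid-gene counts the family gave 22.9, 17.6 and 10.3 in Leydig-targeted libraries, or 21.1 over all 3 with an interval of 15.5 to 28.2, which overlaps the 23.9 to 26.6 of entire sections. Tssk1 alone gave 5.39 per 1000 over the Leydig-targeted libraries, with an interval of 2.78 to 9.44. That lies below the 10.6 to 12.4 of entire sections, while the intervals of each other member overlapped. Replicate 1 gave 37 of the 47 Leydig-targeted counts, and without it the pooled level was 3.47-fold lower.

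Of the 4 tested, 2 fell in Leydig-targeted libraries, where 12.4% of all genes tested were called lower, and the filter favoured that count. Tssk1 was at 182, 74.5 and 0 CPM in Leydig-targeted libraries, against 277 to 635 CPM in entire sections, and its log2 change was -2.60 ± 0.61 (SE; adjusted p = 8.54e-04 by edgeR). Without wild-type Leydig-targeted replicate 1 the log2 change was -3.58, without replicate 3 it was -1.997, and with no filter -3.29; Tssk1 was called in each. The median change over all genes tested was -0.67, and from -0.55 to -0.09 under the 3 other scalings, which put Tssk1 at -2.47 to -1.97 and called it under each. Counted directly, the pooled Tssk1 level was 3.51-fold lower, with an interval of 1.995 to 6.83.

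Tssk6, from 3 Leydig-targeted counts, passed at the margin (log2 change -2.33 ± 0.85, adjusted p = 0.0429 by edgeR). Its ratio was 3.35-fold with an interval of 1.12 to 16.4, and the call was lost in 16 of 19 alternative settings, the replicate block among them (adjusted p = 0.0742). Tssk3 was at 200, 186 and 168 CPM in Leydig-targeted libraries, from 11, 5 and 1 counts. All were below the 208 to 367 CPM of entire sections, though the lowest rests on 1 count. Tssk3 did not pass (log2 change -1.17 ± 0.57, adjusted p = 0.149 by edgeR). Tssk2 was at 164, 37.2 and 0 CPM in Leydig-targeted libraries, against 93.6 to 163 CPM, and did not pass either (log2 change -0.88 ± 0.63, adjusted p = 0.349). Per kb of exon Tssk3 led in Leydig-targeted libraries, at a mean of 144 CPM per kb, and Tssk2 and Tssk1 had 48.3 and 23.1. Tssk4 was at 54.7, 37.2 and 0 CPM in Leydig-targeted libraries, from 4 counts, and Tssk5 at 18.2, 0 and 0 CPM, from 1 count. Both genes overlapped with their range in entire sections, and neither was tested.

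Transcripts of proteins known to work with TSSK kinases moved in both directions. Of 11 listed genes 7 were tested in entire sections; 5 fell and 2 rose in knockouts, where 39.1% of all genes tested were called lower and 22.6% higher. Their median log2 change was -2.34. Tsacc, Crem and Pdpk1 passed the filter through wild-type libraries, so it favoured falls of such genes. Tsacc, which encodes the co-chaperone, had 9 counts in knockout and 116 in wild-type sections, a log2 change of -4.10 ± 0.58 (SE; adjusted p = 6.08e-12 by edgeR). Odf2, the TSSK4 substrate of the sperm tail, had 150 counts in knockout and 1218 in wild-type sections (log2 change -3.53 ± 0.50). Crem, a transcription factor of spermatids, changed by -3.80 ± 0.55, Hsp90aa1 by -2.34 ± 0.47 and Pdpk1, which encodes PDK1, by -1.85 ± 0.47 on the log2 scale.

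The chaperone pair moved apart. Hsp90ab1, the more widely expressed HSP90 gene, rose in knockout sections by 1.31 ± 0.44 on the log2 scale (adjusted p = 0.00613 by edgeR), as did Hspa8 by 1.30 ± 0.46. Scaled to Sertoli cell genes, which summed to 1.24% of knockout and 0.347% of wild-type section counts, neither was called and their log2 changes were -0.01 and 0.04. Tsks, named with Spag16 after their values were seen, did not pass the filter and had 0 counts in knockout sections, against 47 in wild type, at least 10.9-fold lower. Spag16, whose axonemal protein binds TSSK2, had 3 counts in knockout sections and 75 in wild type, a ratio of 22.3-fold with an interval of 7.33 to 110. Creb1, with 56 counts in knockouts and 47 in wild type, and H2ax, with 8 and 17, were not tested. In Leydig-targeted libraries 4 of the 7 tested fell in knockouts, namely Odf2, Hsp90aa1, Tsacc and Crem, and 3 did not pass, where 20.9% of all genes tested were called lower. Crem passed at the margin, from 1 count in knockouts and 8 in wild type (adjusted p = 0.0474 by edgeR). Its call was lost when libraries were scaled by size alone.

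Among 18 other kinases and phosphatases of the testis 11 were tested in entire sections, of which 7 fell, 2 rose and 2 did not pass in knockouts, with a median log2 change of -1.34. The filter favoured falls here too, as Ppp3r2, Mak, Stk33, Nek2 and Stk31 passed it through wild-type libraries. The share of the 11 that rose was no higher than the 22.6% of all genes called higher, and 39.1% of all genes were called lower. Of these genes 3 had changes near those of the TSSK genes. Ppp3r2, the calcineurin B subunit of the testis, had 7 counts in knockout and 621 in wild-type sections (log2 change -6.71 ± 0.64, adjusted p = 2.91e-24 by edgeR). Mak, the male germ cell-associated kinase, changed by -6.49 ± 0.64 and Stk33, a kinase needed for the fibrous sheath of the sperm tail, by -6.38 ± 0.64. Stk31 at -2.99 ± 0.60, the centrosomal kinase Nek2 at -3.17 ± 0.69 and Csnk2a2 at -1.34 ± 0.44 fell by less, and the call of Csnk2a2 was lost when libraries were scaled by size alone. The genes that rose were Prkaca, the catalytic subunit of protein kinase A, by 1.30 ± 0.49 and Ppp1cc by 1.17 ± 0.43, both named after their values were seen and neither called when scaled to Sertoli cell genes. In Leydig-targeted libraries 3 of the 11 fell in knockouts, namely Mak, Nek2 and Ppp3r2, and 8 did not pass, a share near the 20.9% called lower among all genes.

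**Figure D4:**
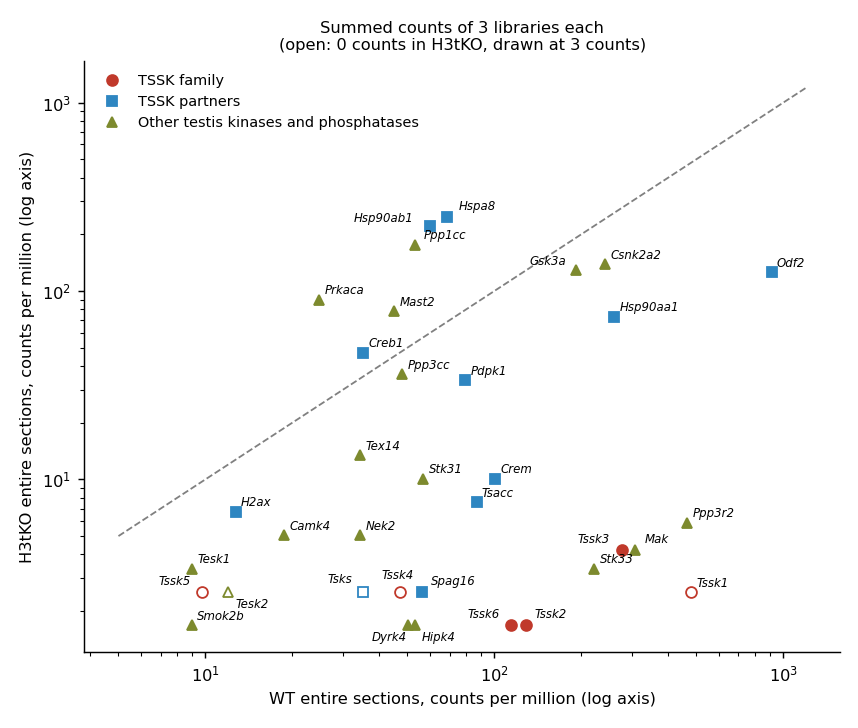
Pooled CPM in wild-type entire sections (x) and knockout entire sections (y), both log axes, for the TSSK genes, their partners and other testis kinases and phosphatases. Open symbols had 0 knockout counts and are drawn at 3 counts; the dashed line marks equal levels, and all 6 TSSK genes lie below it, with Ppp3r2, Mak and Stk33 beside them.

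The 5 genes whose log2 CPM followed the summed family most closely over the 12 libraries were Rimbp3 (Pearson r = 0.995), Catsperz (0.994), Zpbp (0.993), Gk2 (0.993) and Adam5 (0.993). Rimbp3 encodes a protein of the spermatid manchette, Catsperz a subunit of the sperm calcium channel and Zpbp an acrosomal protein. Rimbp3 had 5 counts in knockout and 1782 in wild-type sections, and 0 and 34 in knockout and wild-type Leydig-targeted libraries. Such likeness was common, since 288 genes had r over 0.95 across these libraries, and the genes share the same differences of genotype and depth between them. Between tested members r ran from 0.828 for Tssk3 and Tssk6 to 0.982 for Tssk1 and Tssk2.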

How the data were processed

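The authors deposited raw whole-number counts per gene for 12 libraries. HISAT2, featureCounts, Trim Galore and UMI-tools are listed with GRCm38, per the submitters' processing notes; versions, order and strand use are not stated there. Positions came from GENCODE vM21 of the same build. The members and lists were chosen with earlier results of these data known.

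CPM is a count scaled to the library's total, computed here. Counts were tested with edgeR 4.0.16 (robust quasi-likelihood test, TMM scaling, R 4.3.3), all 12 libraries being fitted together with each group as a term. Genes passed edgeR's filter at a minimum count of 10, and a gene was called where p, adjusted by Benjamini-Hochberg over 5182 genes, was under 0.05. The procedure was tested on simulated data. DESeq2 1.42.0 was an alternative. Folds are ratios of pooled CPM with exact 95% intervals. For a group at 0, a fold given as at least is the lower end of that interval, and the other folds are set against 3 counts. A ratio set against 3 counts leaves out error in the other group's count, and intervals cover counting error only. All 6 members are named, then up to 6 genes of each list by p in entire sections, and the 5 genes most like the family over the 12 libraries. Log CPM used a prior count of 2. Same-numbered entire sections of both genotypes deviated together (correlations across genes 0.243, 0.132 and 0.194), Leydig-targeted libraries did not (at most 0.00818). A two-sided exact permutation test of 3 against 3 cannot go below p = 0.1, so none is given.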

Additional observations from a re-analysis of the deposited data

How the results depend on the processing

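Of the tested members, all 4 fell in knockout entire sections under each alternative, and no direction reversed in a called result. With no filter on low counts, calls were 7055 in knockout against wild-type entire sections (3194 as reported), 825 in Leydig-targeted libraries (1476) with 1 member (3), 1602 in wild-type Leydig-targeted against entire sections (809) and 7 for the interaction (17). Tssk3 in wild-type Leydig-targeted against entire sections was called there at an adjusted p of 0.0260. With the 6 libraries of a comparison alone, calls were 5238, then 173 with 0 members, since none was among the 418 genes that passed the filter, and 346 with 1 member. In wild-type Leydig-targeted against entire sections, 1 member (2 as reported) was called with RLE factors, library size only, Sertoli scaling, the replicate block and DESeq2, and Sertoli scaling gave 378 calls. Interaction calls were 61 by library size only, 32 with Sertoli scaling, 53 with DESeq2 and 9 with the replicate block, which changed no other member call. Leaving out each library gave 2772 to 3438 calls with 4 members in entire sections, 592 to 1501 with 1 to 3 members in Leydig-targeted libraries, 382 to 867 with 1 to 2 members between areas, and 7 to 78 for the interaction. Wild-type Leydig-targeted replicate 1 set the lowest counts of 592 and 382, and between areas 463 and 477 were called without replicates 2 and 3 of that group and 430 without wild-type entire section replicate 1. Leaving out each library, an alternative added after seeing the data, put the pooled family at 94.4-fold to 459-fold lower in knockout entire sections. In knockout Leydig-targeted libraries it was 9.81-fold to 22.5-fold lower, set against 3 counts. In wild-type Leydig-targeted libraries it was 1.58-fold to 3.47-fold lower than in entire sections. By CPM per kb Tssk1 ranked 2 (1 as reported) and Tssk3 ranked 1 (2).

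Scaling moved the split of all calls. Entire sections had 1170 higher and 2024 lower, 1861 and 1707 by library size only, and 141 and 3165 with Sertoli scaling, as the median of all genes moved from -0.35 to 0.22 and -1.66. Leydig-targeted libraries had 391 higher and 1085 lower, and 127 and 1472 with Sertoli scaling. Wild-type Leydig-targeted against entire sections had 167 higher and 642 lower, 320 and 241 by library size only, and 189 and 189 with Sertoli scaling. The causes were not tested. Depth limited the Leydig-targeted libraries, where a level under 27.8 CPM in knockouts or 34.2 CPM in wild type was under 3 counts over the group.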
